A study of Mus musculus with 3 samples.

Results

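The primary granule genes described here are 10 genes of the azurophil granule program of promyelocytes: Mpo, Elane, Prtn3, Ctsg, Prss57, Ms4a3, Ctsc, Srgn, Nkg7 and Cst7. They are named by symbol as known members of this program, and all 10 were found among the 24421 gene symbols of each file. RNA was sequenced from granulocyte progenitors, the marrow precursors committed to granulocytes, sorted by flow cytometry from the bone marrow of female mice. The study asked how the transcription factor IRF8 acts at this stage on the output of myeloid-derived suppressor cells, which are immature myeloid cells of tumor-bearing hosts. There were 3 libraries, 1 per group. The 4T1-TB library came from F1 semi-syngeneic mice (H-2b/d) carrying orthotopic 4T1 mammary tumor cells, the IRF8-deficient library from C57BL/6 mice (H-2b) genetically deficient in IRF8, and the NTB library from non-tumor-bearing F1 semi-syngeneic mice (H-2b/d). Strain and genotype therefore cannot be told apart in any comparison that includes the IRF8-deficient library. The sources used here give neither the ages of the mice, nor the number of mice behind each library, nor the design of the deficient allele.

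Primary granules are the first granules that a developing neutrophil makes, and their cargo is transcribed mainly at the promyelocyte stage. They carry myeloperoxidase, a heme enzyme that produces hypochlorous acid, and serine proteases that digest bacteria and matrix proteins. The proteases are made as inactive precursors, are activated by the dipeptidyl peptidase cathepsin C, and are held in the granule by the proteoglycan serglycin. Secondary and tertiary granules, with lactoferrin, cathelicidin and gelatinase, are made later, when transcription of the primary cargo declines.

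The start regions of 4 of these genes are shown. Elane and Prtn3 are neighbours on chromosome 10 whose ratios of 4T1-TB to NTB differed from each other. Mpo and Ctsg are the highest members outside that cluster. Each line holds the 250 bases before the RefSeq start site, 5′ to 3′ on the gene's own strand, on build GRCm38.p6. The windows are chr11:87793534-87793783 on the plus strand for Mpo, chr10:79886062-79886311 on the plus strand for Elane, chr10:79879417-79879666 on the plus strand for Prtn3 and chr14:56102575-56102824 on the minus strand for Ctsg. Capitals mark the letters GAGGAA, a core of sites of the myeloid factor PU.1.
Mpo: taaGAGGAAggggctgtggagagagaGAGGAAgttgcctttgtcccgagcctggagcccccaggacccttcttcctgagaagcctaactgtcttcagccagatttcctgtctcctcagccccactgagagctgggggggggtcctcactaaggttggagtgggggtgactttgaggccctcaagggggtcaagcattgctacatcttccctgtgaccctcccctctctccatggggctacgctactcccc
Elane: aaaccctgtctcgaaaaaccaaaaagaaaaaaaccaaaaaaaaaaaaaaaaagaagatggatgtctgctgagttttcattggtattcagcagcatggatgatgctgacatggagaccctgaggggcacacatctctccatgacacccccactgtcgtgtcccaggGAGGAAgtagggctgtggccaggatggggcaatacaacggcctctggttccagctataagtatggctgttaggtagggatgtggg
Prtn3: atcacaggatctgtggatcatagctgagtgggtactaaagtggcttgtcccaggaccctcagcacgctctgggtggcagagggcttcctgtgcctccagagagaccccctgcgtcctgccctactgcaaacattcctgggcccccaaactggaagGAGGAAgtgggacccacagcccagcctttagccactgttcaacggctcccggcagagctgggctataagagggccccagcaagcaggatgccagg
Ctsg: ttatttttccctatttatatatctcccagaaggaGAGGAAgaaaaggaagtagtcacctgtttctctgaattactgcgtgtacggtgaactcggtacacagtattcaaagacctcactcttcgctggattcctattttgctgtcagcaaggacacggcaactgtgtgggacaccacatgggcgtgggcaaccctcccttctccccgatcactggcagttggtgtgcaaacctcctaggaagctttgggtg

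The letters GAGGAA, searched on both strands, stood in all 4 of these windows, and in 5 of the 9 members with a promoter entry (the fifth is Ctsc). Of 32851 windows of the same length in the whole table, 23.3% held them. In Elane they lay 85 to 80 bases before the start and in Prtn3 95 to 90 bases before it. A C/EBP pattern, TTNNGNAA, stood in the windows of Ms4a3, Srgn and Cst7, and in 36.8% of all windows. Other patterns were searched too. The MYB pattern AACNG stood in 8 of the 9 members and 74.2% of all windows. The RUNX pattern TGNGGT stood in 5 of the 9 and 40.1%, and the TATA pattern TATAAA in 2 of the 9 and 12.4%. The GFI1 pattern AAATCA stood in none of the 9 and in 12.4% of all windows. A combined ETS and IRF pattern, GGAA and GAAA parted by 2 free bases, stood in none of the members' windows and in 2.30% of all windows. An IRF pattern, a pair of GAAA parted by 2 free bases, stood in 1 of the 2 windows of Srgn and in 2.98% of all windows. Both can overlap each other, and the combined pattern can overlap GAGGAA. These are matches of letters only, and a pattern without a match says only that its letters are not in that window. Prss57 had no entry.

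Whole reads recovered from the deposited values summed to 23434635 in 4T1-TB, 35987726 in IRF8-deficient and 42407105 in NTB. Levels are in RPKM, which scales reads by the length of the gene model and by library size, and intervals are 95% intervals for counting error only. With 1 library per group there is no spread between animals, so no difference was tested and no p-value is given. Irf8, the gene lost in the deficient mice by their label, stood at 8.60 RPKM in 4T1-TB, 13.7 in IRF8-deficient and 43.8 in NTB. A value for the whole gene leaves unknown which exons gave the remaining reads in the deficient library. The ribosomal RNA precursor Rn45s took 6.31% of reads in 4T1-TB, 13.8% in IRF8-deficient and 1.79% in NTB.

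The label of the sorted cells was set against markers. Mpo and Elane were among the 20 highest of all genes in each library, at ranks 3 and 9 in 4T1-TB, 16 and 20 in IRF8-deficient, and 2 and 6 in NTB. Of 16 cytotoxic lymphocyte genes, which share Srgn, Nkg7 and Cst7 with neutrophil precursors, none reached 1 RPKM in any library, and their summed level was 0.464 RPKM in 4T1-TB, 0.946 in IRF8-deficient and 1.45 in NTB. Gzmb, the granzyme B gene, was listed at 0 in all 3 libraries, and the perforin gene Prf1 was listed at 0 in 4T1-TB and rested on 1 read in IRF8-deficient and 2 reads in NTB. Of 15 secondary granule genes, the summed level was 2539 RPKM in 4T1-TB, 49626 in IRF8-deficient and 2218 in NTB, and 16 mature neutrophil genes summed to 13427, 102101 and 8975 RPKM in the same order. S100a8 and S100a9 supplied most of the second sum, with 6254 and 6556 RPKM in 4T1-TB, 49180 and 51479 in IRF8-deficient, and 4255 and 4413 in NTB. All 16 mature neutrophil genes stood higher in IRF8-deficient than in NTB, and 12 stood higher than in 4T1-TB. The deficient library thus also held far more RNA of these lists by sum. Monocyte genes, 13 in the list, summed to 641 RPKM in 4T1-TB, 1723 in IRF8-deficient and 1056 in NTB, of which Ly6c2, a surface antigen of inflammatory monocytes, made up 478, 1349 and 739. Mast cell and basophil genes, 14 in the list, summed to 91.2, 73.1 and 131 RPKM, of which Hdc made up 61.4, 54.5 and 104. Only 4, 4 and 5 of the 14 reached 1 RPKM. T cell genes summed to 0.746, 1.11 and 0.572 RPKM. Granulocyte-monocyte progenitor genes, 12 in the list, summed to 1304 RPKM in 4T1-TB, 836 in IRF8-deficient and 1282 in NTB. Npm1 made up 745, 268 and 632 of these. Within this list Cd34, a surface marker of early progenitors, stood at 8.73 RPKM in 4T1-TB, 5.41 in IRF8-deficient and 36.9 in NTB.

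The 10 genes together took 3.18% of recovered reads in 4T1-TB (interval 3.17% to 3.19%), 1.26% in IRF8-deficient (1.25% to 1.26%) and 3.135% in NTB (3.13% to 3.14%). Mpo alone supplied 51.2% of these reads in 4T1-TB, 59.0% in IRF8-deficient and 58.4% in NTB. The tumor-bearing and control libraries thus gave the primary granule genes nearly the same share of reads, and the deficient library a smaller one. This near equality held only with Mpo: without it the share was 1.55% in 4T1-TB, 0.516% in IRF8-deficient and 1.30% in NTB. The summed RPKM of the 10 genes was 23559 in 4T1-TB, 11326 in IRF8-deficient and 19544 in NTB. In bulk RNA, fewer cells of a type and less RNA per cell cannot be told apart. The order of levels was Mpo, Elane, Prtn3, Ctsg, Srgn, Ms4a3, Nkg7, Cst7, Prss57 and Ctsc in the IRF8-deficient and NTB libraries. In 4T1-TB Prtn3 stood above Elane and the order was otherwise equal. The intervals of neighbours in this order did not overlap in any library.

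**Figure D1:**
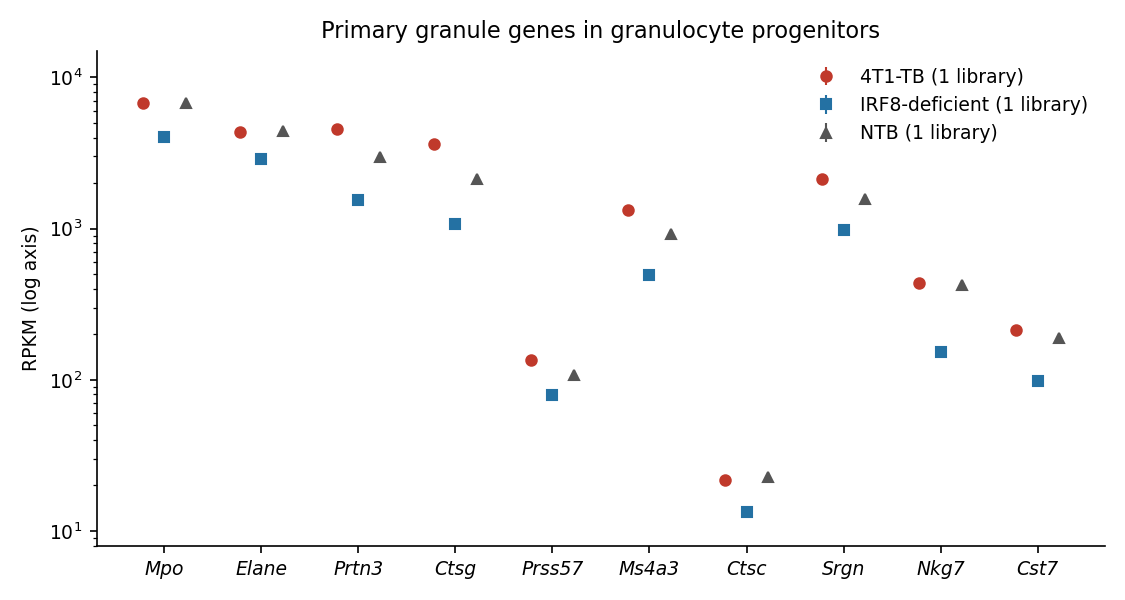
RPKM (log axis) of the 10 primary granule genes in the 4T1-TB, IRF8-deficient and NTB libraries, 1 library each, with 95% Poisson intervals that are mostly smaller than the symbols. The IRF8-deficient library is lowest for every gene, and for Ctsg the levels are 3617 in 4T1-TB, 1077 in IRF8-deficient and 2112 in NTB.

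Mpo encodes myeloperoxidase and lies on the plus strand of chromosome 11, from 87793581 to 87804413 of mm10 (ENSMUSG00000009350.13), with up to 14 exons in a transcript. Its level was 6749 RPKM in 4T1-TB (interval 6728 to 6770), 4012 in IRF8-deficient (3997 to 4028) and 6811 in NTB (6796 to 6826), from 381590, 266745 and 776688 reads in that order. The tumor-bearing and control libraries stood close together, and the deficient library well below both. The 4T1-TB level was 0.991 times the NTB level (0.987 to 0.995), and the sign of this small difference turned under median ratio scaling, where the ratio was 1.02.

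Elane encodes neutrophil elastase, the best known of the serine proteases of this granule. The gene spans 79886247 to 79888215 of chromosome 10, plus strand (ENSMUSG00000020125.7). Elane had 4332 RPKM in 4T1-TB, 2889 in IRF8-deficient and 4411 in NTB. Its level was 64.2% of the Mpo level in 4T1-TB, 72.0% in IRF8-deficient and 64.8% in NTB. Elane thus followed Mpo closely between 4T1-TB and NTB. The ratio of Elane to Mpo was 1.11 times as high in IRF8-deficient as in NTB (1.10 to 1.12). The Elane ratio of 4T1-TB to NTB was 0.982 (0.974 to 0.990) and became 1.01 under median ratio scaling.

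Prtn3 encodes proteinase 3, a protease closely related to elastase, and lies 3072 bases upstream of Elane on the same strand, from 79874476 to 79883174 of chromosome 10 (ENSMUSG00000057729.12). It had 4585 RPKM in 4T1-TB, 1535 in IRF8-deficient and 2992 in NTB. Unlike Elane, it stood 1.53 times as high in 4T1-TB as in NTB (1.52 to 1.54). The ratio of Prtn3 to Elane within a library, which no scaling between libraries can move, was 1.06 in 4T1-TB, 0.532 in IRF8-deficient and 0.678 in NTB. This ratio was 1.56 times as high in 4T1-TB as in NTB (1.54 to 1.58) and 0.784 times as high in IRF8-deficient as in NTB (0.772 to 0.795). The first bases of the annotated span of Prtn3 overlap the opposite-strand gene Lppr3, which had 34.5, 21.9 and 34.1 RPKM in the same order of libraries. The sources used here do not say whether counting used strand, so reads of the shared bases cannot be told apart.

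Ctsg encodes cathepsin G, a protease of the granzyme and mast cell protease cluster, on the minus strand of chromosome 14 from 56099881 to 56102574 (ENSMUSG00000040314.2). It had 3617 RPKM in 4T1-TB, 1077 in IRF8-deficient and 2112 in NTB, and was the member that differed most between 4T1-TB and NTB, at 1.71 times (1.70 to 1.73). Its level was 53.6% of that of Mpo in 4T1-TB, 26.8% in IRF8-deficient and 31.0% in NTB. Ctsg and Prtn3, on different chromosomes, kept a similar ratio to each other, with 0.789 in 4T1-TB, 0.701 in IRF8-deficient and 0.706 in NTB.

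Prss57, a serine protease gene of the same chromosome 10 region (minus strand, 79781474 to 79790961, ENSMUSG00000020323.14), was far lower, at 134 RPKM in 4T1-TB, 78.9 in IRF8-deficient and 108 in NTB. It was the member least reduced in the deficient library against NTB. Set against Mpo it was higher in both: the ratio of Prss57 to Mpo was 1.25 times as high in 4T1-TB as in NTB (1.22 to 1.29) and 1.24 times as high in IRF8-deficient as in NTB. Its end overlaps the opposite-strand gene Fstl3, which had 0.738, 2.51 and 0.754 RPKM.

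**Figure D2:**
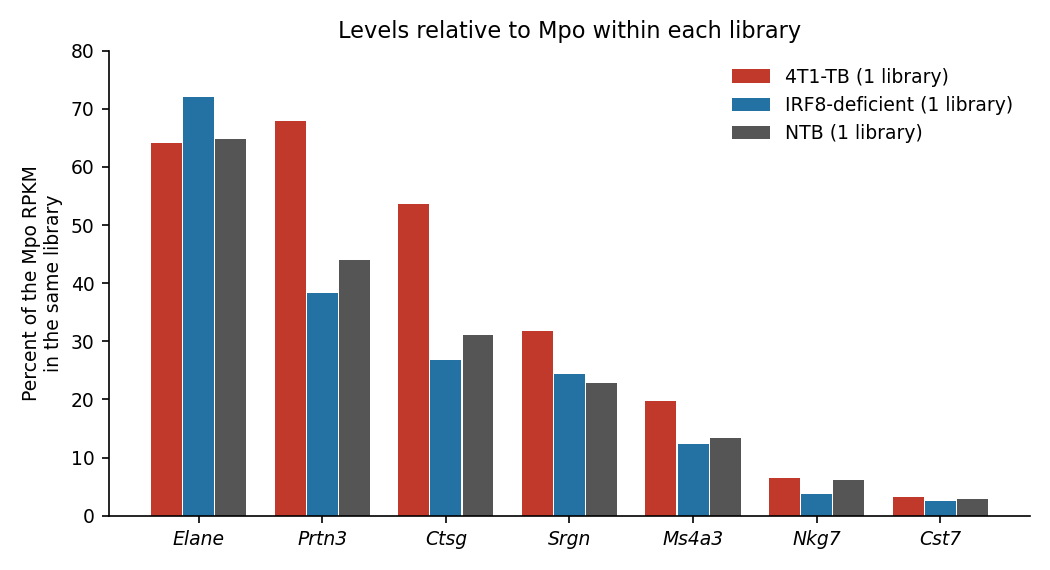
Level of 7 primary granule genes as a percent of the Mpo RPKM in the same library, for 4T1-TB, IRF8-deficient and NTB, 1 library each. Prtn3 and Ctsg reach 67.9% and 53.6% in 4T1-TB, against 43.9% and 31.0% in NTB, while Elane stands at 64.2% in 4T1-TB and 64.8% in NTB.

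Ctsc and Cst7 act on the activation of the proteases. Ctsc encodes cathepsin C and lies on the plus strand of chromosome 7, from 88278085 to 88310888 (ENSMUSG00000030560.17). It was the lowest member, with 21.7 RPKM in 4T1-TB (20.4 to 22.9), 13.3 in IRF8-deficient (12.4 to 14.2) and 22.9 in NTB (22.01 to 23.80). The activating enzyme thus stood far below its substrates at the RNA level in every library. Its 4T1-TB to NTB ratio of 0.946 had an interval that included 1 (0.882 to 1.01) with RPKM as deposited. This ratio was 0.973 with median ratio scaling and 0.903 with scaling by reads other than those of the 20 highest genes. With scaling by summed reads it was 0.849, so whether a difference shows depends on the scaling. Cst7 encodes cystatin F, an inhibitor of cathepsin C, on the plus strand of chromosome 2 from 150570415 to 150578944 (ENSMUSG00000068129.5). It had 213 RPKM in 4T1-TB, 98.1 in IRF8-deficient and 189.8 in NTB. The inhibitor transcript exceeded that of the enzyme in each library, by 9.83 times in 4T1-TB, 7.40 times in IRF8-deficient and 8.29 times in NTB.

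Srgn encodes a matrix component of the granule, and Ms4a3 and Nkg7 encode membrane proteins. Its product serglycin binds the basic proteases, and the gene lies on the minus strand of chromosome 10 from 62493833 to 62527451 (ENSMUSG00000020077.14). It had 2141 RPKM in 4T1-TB, 978 in IRF8-deficient and 1560 in NTB, and was 1.37 times as high in 4T1-TB as in NTB (1.36 to 1.39). Ms4a3 encodes a tetraspan membrane protein that marks granulocyte and monocyte progenitors, on the minus strand of chromosome 19 from 11629496 to 11640851 (ENSMUSG00000024681.11). It had 1331 RPKM in 4T1-TB, 492 in IRF8-deficient and 916 in NTB, or 1.45 times as high in 4T1-TB as in NTB (1.43 to 1.47). In these 2 genes the 4T1-TB library was highest and the IRF8-deficient library lowest, as it was for Prtn3 and Ctsg. Nkg7 encodes a granule membrane protein known from cytotoxic lymphocytes, on the plus strand of chromosome 7 from 43437073 to 43438249 (ENSMUSG00000004612.9). It had 435 RPKM in 4T1-TB, 152 in IRF8-deficient and 420.4 in NTB. Its ratio of 4T1-TB to NTB was 1.04 (1.01 to 1.06), which was below 1 with scaling by summed reads (0.929) or by reads other than those of the 20 highest genes (0.988).

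The comparison of 4T1-TB with NTB asks how the tumor-bearing library differed from the control. Ctsg, Prtn3, Ms4a3 and Srgn stood 1.37 to 1.71 times as high in 4T1-TB, Prss57 and Cst7 1.24 and 1.12 times, and Mpo, Elane, Nkg7 and Ctsc within 0.946 and 1.04 times. A gene was called where log2(RPKM + 1) differed by at least 1 in either direction, which is 2-fold. None of the 10 members was called in either direction, against 1.67% of the 10658 genes compared called higher and 1.35% called lower. These are 178 genes higher and 144 lower, and with scaling by summed reads they were 156 and 211. The members' median difference was 0.24 on log2(RPKM + 1), and that of all genes compared was 0.01. The difference of Ctsg, 0.78, lay above those of 97.5% of genes compared and that of Ctsc, −0.08, above those of 38.0%. At a call of 1.5-fold Ctsg and Prtn3 were called higher, against 4.37% of all genes compared. In each of the 3 other scalings Ctsg (1.54 to 1.76 times), Prtn3 (1.37 to 1.58), Ms4a3 (1.30 to 1.49) and Srgn (1.23 to 1.41) remained above 1.

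The comparison of IRF8-deficient with NTB asks how the deficient library differed from the control. All 10 members stood lower, at 0.362 times for Nkg7 to 0.730 times for Prss57, and every interval excluded 1. Mpo stood at 0.589 times the NTB level (0.587 to 0.592), Elane at 0.655 times (0.649 to 0.661), Prtn3 at 0.513 times (0.507 to 0.519) and Ctsg at 0.510 times (0.503 to 0.517). Nkg7 was the only member called lower, 1 of 10, against 5.73% of genes compared called lower. Its difference was −1.46 on log2(RPKM + 1), and just outside the call stood Ctsg with −0.97, Prtn3 with −0.96 and Cst7 with −0.95. The members' median difference was −0.83 and that of all genes compared was −0.02.

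The number called depended on the scaling and on the threshold. With scaling by summed reads, 9 of 10 members were called lower, all but Prss57, against 18.4% of genes compared called lower and 4.36% called higher. In that scaling the median difference was −0.50 over all genes and −1.37 over the members, with 465 genes called higher and 1963 lower in place of 936 and 611. With scaling by reads other than those of the 20 highest genes, 5 members were called lower, against 8.46% of genes compared, and at 1.5-fold 9 members were, against 16.7%. Over all genes, scaling without the 20 highest genes gave 728 higher and 902 lower. Every member lay below the median of all genes compared. A scaling moves the members and this median together, so the other scalings could hardly change that order.

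**Figure D3:**
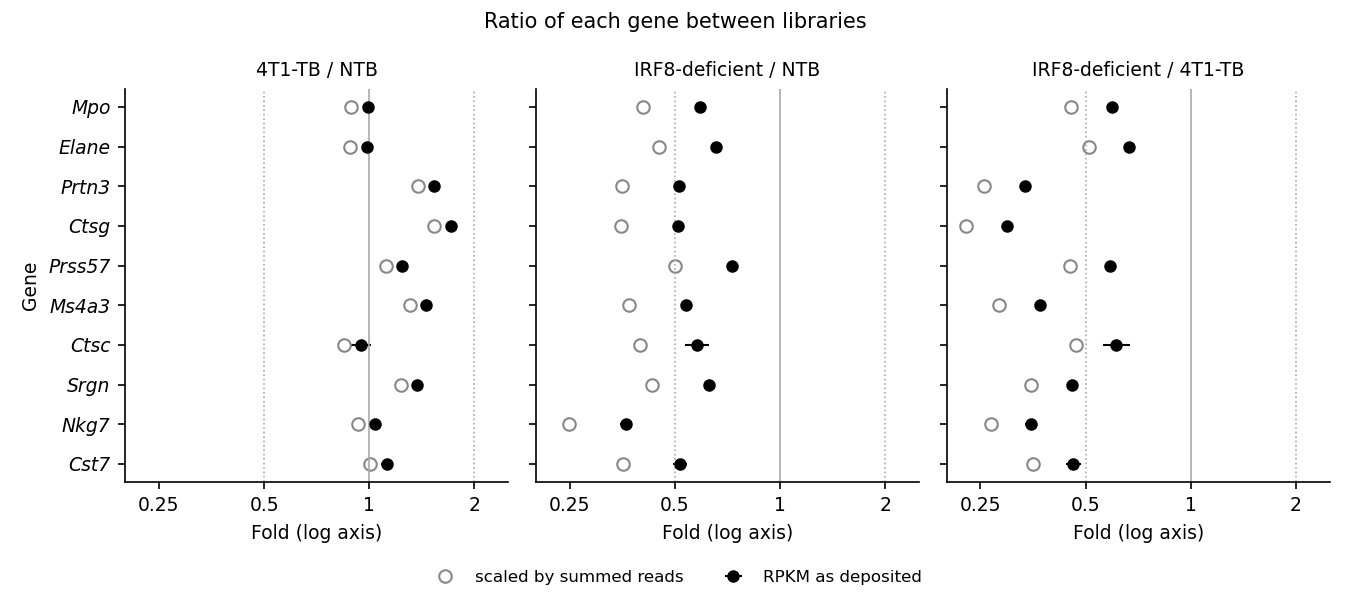
Ratio of each member between libraries (log axis) for 4T1-TB over NTB, IRF8-deficient over NTB and IRF8-deficient over 4T1-TB, from RPKM as deposited (filled, with 95% counting intervals) and after scaling by summed reads (open). Dotted lines mark 2-fold. All 10 members lie below 1 in both comparisons of the IRF8-deficient library, and summed read scaling shifts them further left.

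The direct comparison of IRF8-deficient with 4T1-TB again had all 10 members lower. Here the 4T1-TB library came from tumor-bearing mice, so tumor, genotype and strain cannot be told apart. Ctsg stood at 0.298 times the 4T1-TB level (0.294 to 0.302), Prtn3 at 0.335 times (0.331 to 0.339), Nkg7 at 0.349 times (0.335 to 0.364) and Ms4a3 at 0.370 times (0.362 to 0.377). With Srgn (0.457 times) and Cst7 (0.461 times), 6 of 10 members were called lower, against 7.07% of genes compared called lower and 8.83% called higher. Mpo (0.595 times), Prss57 (0.588 times), Ctsc (0.612 times) and Elane (0.667 times) were not called. The members' median difference was −1.12 on log2(RPKM + 1), and that of all genes compared was 0.00. Over all genes 941 were called higher and 754 lower, and with scaling by summed reads 505 and 1562. The number of members called lower was 9 with scaling by summed reads, against 14.7% of genes compared, and 9 at 1.5-fold, against 18.1%. The comparisons share libraries with each other, so they are not independent of one another.

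**Figure D4:**
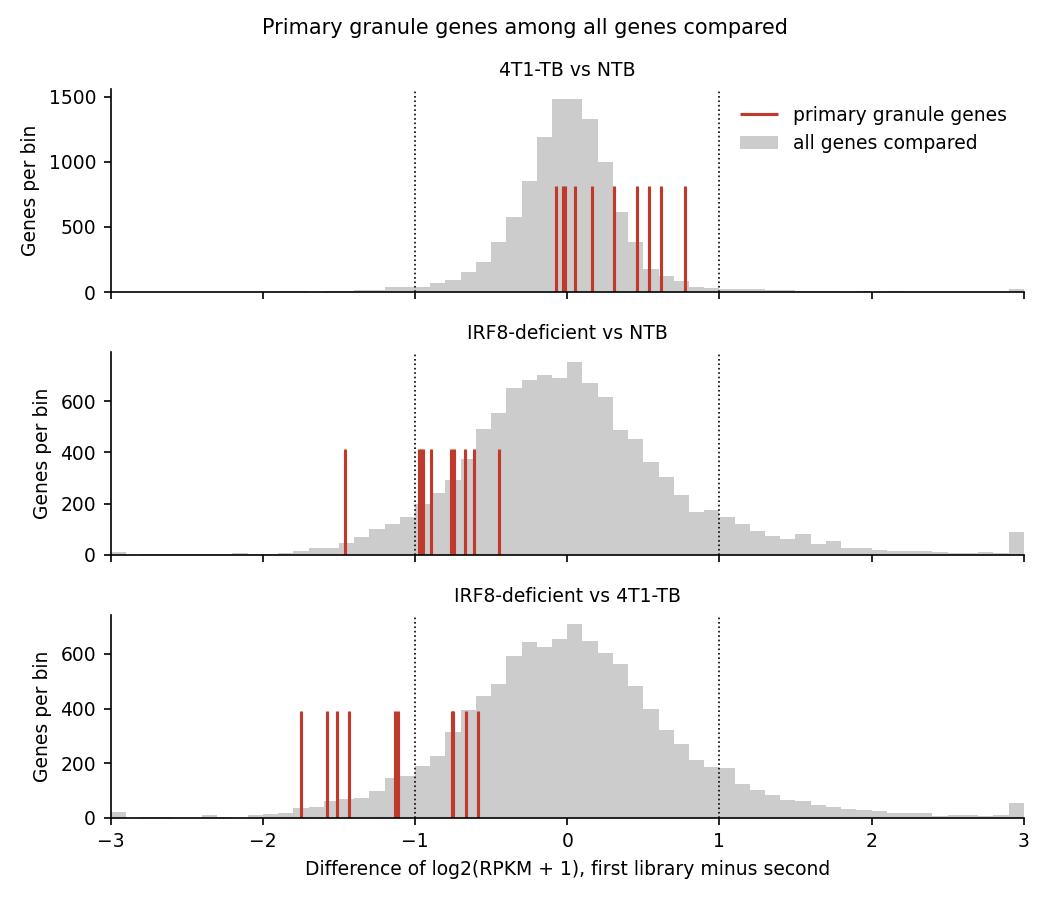
Number of genes per bin of 0.1 in the difference of log2(RPKM + 1), first library minus second, for the 10658 genes compared (grey, with genes beyond 3 in the outermost bins) and for the 10 primary granule genes (red lines, height without meaning). Dotted lines mark the 2-fold call. The red lines lie between −0.08 and 0.78 for 4T1-TB vs NTB, between −1.46 and −0.45 for IRF8-deficient vs NTB, and between −1.75 and −0.58 for IRF8-deficient vs 4T1-TB.

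The members differed among themselves in how closely they followed Mpo. By distance in their differences from NTB on log2(RPKM + 1), over 2 differences from 3 libraries and among 1769 genes that reached an RPKM of 50 in some library, the genes nearest to Mpo were AI662270, Npm3, Rps12, Rpl10a and Cnbp, and Elane came at place 32 with a distance of 0.153. Ctsc did not reach 50 RPKM and was not ranked, but at a distance of 0.0662 it was the member nearest to Mpo. The genes nearest to Nkg7 were Myc, Dkc1, Pebp1, Parp1 and Idh2, and Cst7, its nearest fellow member, came at place 56. Among the other 9 members, 7 had a higher ratio to Mpo in 4T1-TB than in NTB with a counting interval above 1, namely Ctsg, Prtn3, Ms4a3, Srgn, Prss57, Cst7 and Nkg7. For Ctsc to Mpo the interval of this ratio included 1 in all 3 comparisons.

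Some genes of later stages were called higher in 4T1-TB, and most of them in IRF8-deficient. In 4T1-TB against NTB, 5 of 15 secondary granule genes and 8 of 16 mature neutrophil genes were called higher and none lower, against 1.67% of genes compared called higher, with median differences of 0.66 and 1.47. Mmp9, the gelatinase gene of mature neutrophils, had 29.8 RPKM in 4T1-TB, 149 in IRF8-deficient and 1.91 in NTB. Lcn2, a secondary granule lipocalin gene, had 203, 5205 and 89.2 RPKM in the same order. Of the 15 secondary granule genes 9 had a difference above 0 in 4T1-TB, and Ltf, Camp and Ngp were among the others. Monocyte genes stood lower in 4T1-TB: all 12 compared had a difference below 0, and 5 were called lower, against 1.35% of genes compared, with a median of −0.83. In IRF8-deficient against NTB, 2 of these 12 were called higher and 3 lower, against 8.78% and 5.73% of genes compared. The part of these markers in the higher Ctsg, Prtn3, Ms4a3 and Srgn levels of 4T1-TB was not tested. By sum the difference lay in the deficient library: the 15 secondary granule genes, among them Ltf (lactoferrin) and Camp (cathelicidin), took 0.340% of reads in 4T1-TB, 4.66% in IRF8-deficient and 0.298% in NTB. The summed RPKM of the primary granule genes was 9.28 times that of the secondary granule genes in 4T1-TB, 0.228 times in IRF8-deficient and 8.81 times in NTB. The deficient library was thus the only library of the 3 in which the secondary granule list exceeded the primary one. All 15 secondary granule genes were called higher in IRF8-deficient against NTB, as were 14 of the 16 mature neutrophil genes. Of all genes compared 8.78% were. With scaling by summed reads 13 of the 15 were called higher, against 4.36% of genes compared. Of 11 progenitor genes compared 7 were called lower and 1 higher in IRF8-deficient against NTB, against 5.73% and 8.78% of genes compared. In 4T1-TB against NTB 1 of the 11 was called lower, Cd34, and 1 higher, Hoxa9, against 1.35% and 1.67%. There 4 of the 11 had a difference above 0. The part of these cell stages in the lower primary granule levels was not tested.

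**Figure D5:**
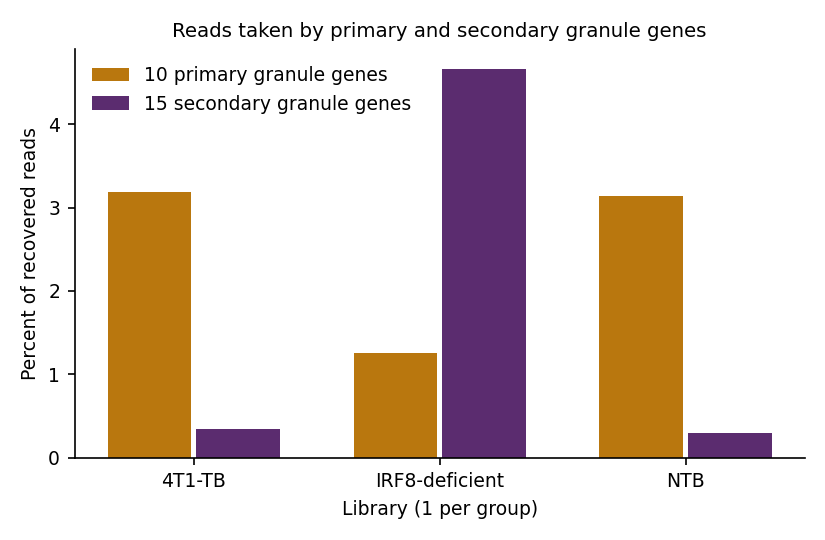
Percent of recovered reads taken by the 10 primary granule genes and by 15 secondary granule genes in the 4T1-TB, IRF8-deficient and NTB libraries, 1 library each, with bars from 0. Primary granule genes take 3.18% in 4T1-TB, 1.26% in IRF8-deficient and 3.135% in NTB, and secondary granule genes 0.340%, 4.66% and 0.298%.

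Other cargo of primary granules and lysosomes was mixed in the deficient library. Of 23 such genes compared, 2 were called higher and none lower in IRF8-deficient against NTB, against 8.78% and 5.73% of all genes compared, so the share called higher was near the background. The median difference was 0.39 on log2(RPKM + 1). With scaling by summed reads 1 was called higher and 1 lower, and the median was −0.10. Plbd1, a phospholipase B-like gene, had 5.11 RPKM in 4T1-TB, 192 in IRF8-deficient and 3.42 in NTB, and Ctsh, the cathepsin H gene, had 8.46, 48.6 and 19.1. Cd63, whose protein marks the membrane of these granules, was not called against NTB but stood with the members, at 181 RPKM in 4T1-TB, 75.4 in IRF8-deficient and 140.2 in NTB. Lamp1 and Ctsd, also highly expressed and not called, stood higher in IRF8-deficient than in NTB. Lamp1 had 146, 211 and 153 RPKM in the same order of libraries, and Ctsd 212, 183 and 122. Of the 23 genes 13 had a difference above 0 in IRF8-deficient against NTB, and 8 with scaling by summed reads. In 4T1-TB against NTB 1 of the 23 was called, Ctsh, which was lower, and the median over the list was 0.10. Of all genes compared 1.67% were called higher there and 1.35% lower.

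Genes that fold, cut and sort granule cargo were called about as often as all genes in IRF8-deficient against NTB. Of 33 compared, 1 was called higher and none lower in 4T1-TB against NTB, with a median difference of 0.13. Of all genes compared 1.67% were called higher there and 1.35% lower. In IRF8-deficient against NTB 3 were called higher and 2 lower, against 8.78% and 5.73% of all genes compared, with a median difference of −0.25. In IRF8-deficient against 4T1-TB 2 were called higher and 7 lower, against 8.83% and 7.07% of all genes compared, with Calr and Hspa5 among the lower. Calr, which encodes calreticulin, a chaperone of the myeloperoxidase precursor, had 1811 RPKM in 4T1-TB, 588 in IRF8-deficient and 1183 in NTB, and was called lower in IRF8-deficient against NTB with a difference of −1.01, just past the threshold. The chaperone gene Hspa5 had 873, 296 and 523 RPKM in the same order, without a call against NTB. The other gene called lower there was G6pc3, a glucose phosphatase gene whose loss causes neutropenia (45.9, 20.8 and 45.7 RPKM). Called higher were Lyst, the lysosomal trafficking regulator (73.0, 152 and 66.4 RPKM), Igf2r, which encodes a mannose 6-phosphate receptor (10.6, 24.3 and 7.40), and the convertase gene Furin (14.6, 24.5 and 10.8). Scaled by summed reads, 9 genes of this list were called lower in IRF8-deficient and 1 higher, against 18.4% and 4.36% of all genes compared.

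Of 12 heme synthesis genes, none was called in 4T1-TB against NTB, with a median difference of 0.13. Of all genes compared 1.67% were called higher there and 1.35% lower. In IRF8-deficient against NTB 1 was called lower, against 5.73% of all genes, with a median difference of −0.47. With scaling by summed reads 5 were called lower there, against 18.4%. Alad, the porphobilinogen synthase gene, was that gene, with 4.16 RPKM in 4T1-TB, 1.23 in IRF8-deficient and 5.97 in NTB. Alas1, the rate-limiting enzyme of heme synthesis outside red cells, had 334, 220.3 and 305 RPKM. Of 8 protease inhibitor genes compared, a list that holds Cst7, none was called in 4T1-TB and 1 was called higher in IRF8-deficient, Serpinb6a (3.51 RPKM in 4T1-TB, 9.90 in IRF8-deficient and 3.62 in NTB). The median difference of this list in IRF8-deficient was 0.18, and −0.36 with scaling by summed reads, which called none higher and 2 lower. The single higher call stands beside 8.78% of all genes, and the 2 lower calls beside 18.4%. The lack of calls in 4T1-TB stands beside 1.67% higher and 1.35% lower. Serpinb1a, an inhibitor of elastase, proteinase 3 and cathepsin G, was the highest of them and stood higher in the deficient library than in NTB, unlike the genes of its targets, with 428 RPKM in 4T1-TB, 461 in IRF8-deficient and 291 in NTB. Slpi, a secreted inhibitor of elastase and cathepsin G, had 51.2 RPKM in 4T1-TB, 125 in IRF8-deficient and 69.8 in NTB.

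Of 19 transcription factor genes of this stage, 1 was called higher and 3 lower in 4T1-TB against NTB, against 1.67% and 1.35% of all genes, and 3 higher and 5 lower in IRF8-deficient against NTB, against 8.78% and 5.73%. With scaling by summed reads the second pair was 2 and 8, against 4.36% and 18.4%. The list holds Irf8, which is 1 of the lower calls in both comparisons. Cebpa, which specifies these progenitors, had 43.3 RPKM in 4T1-TB, 36.3 in IRF8-deficient and 42.6 in NTB, and Myb, which sustains early myeloid genes, had 239, 167 and 300.2. Neither was called. Cebpe, which drives later granule genes, had 108 RPKM in 4T1-TB, 255 in IRF8-deficient and 77.4 in NTB and was called higher in IRF8-deficient. The other higher calls there were Ets1 (24.5, 83.3 and 22.3 RPKM in the same order) and Cebpd (26.3, 47.3 and 21.4). Relatives of the members on the same chromosome segments were near 0: Cfd, next to Elane, had 0.874, 0.620 and 0.361 RPKM, and the peroxidase genes Epx and Lpo, near Mpo, had at most 0.407 RPKM in any library. Of 27 related granule proteases and peroxidases only Mcpt8, a basophil protease gene, passed 10 RPKM, with 20.4 in 4T1-TB, 8.73 in IRF8-deficient and 15.7 in NTB.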

How the data were processed

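The deposited values are RPKM made by the authors (reads scaled by gene model length and library size) for 24421 symbols in each of 3 libraries. Per the submitters' processing notes the build was mm10 and the tools were edgeR 3.12.1, HTSeq 0.6.1, Picard 1.97, TopHat2 2.0.13, cutadapt 1.2.1 and CASAVA 1.8.2. The sources used here do not give the role of each tool, the gene annotation, strandedness or filters. RPKM was used as deposited, so each level is corrected for gene length and for a library size whose form is not given.

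The RPKM values of each gene were related across libraries as whole numbers, which gave read numbers for 15158 genes. Before any common factor was applied, implied lengths were whole, within 1e-06 bases per 1000 bases (and within 1e-06 bases for shorter genes), for 92.0% of genes with reads in all libraries and at least 200 in the highest, and 89.6% of 14553 final lengths were within 0.8 to 1.25 of a GENCODE M21 length. The common factor of a gene was in part chosen from that length. The library size implied by the RPKM was 0.948 times the summed reads in 4T1-TB, 0.726 times in IRF8-deficient and 1.06 times in NTB. An RPKM of 1 over 1000 bases rested on 22.2, 26.1 and 44.8 reads in that order. Intervals are exact Poisson (levels), exact binomial (Clopper-Pearson, shares and ratios of a gene between libraries) or log-normal on read numbers (ratios of ratios), all at 95% and for counting error only, since PCR copies are not independent molecules.

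Differences are on the log2(RPKM + 1) scale, on which those of low genes are understated. They cover the 10658 genes that reached an RPKM of 1 in any library, with a call at 2-fold. All 10 members passed this filter in every library. Alternatives were pseudocounts of 0.1 and 5, 3 scalings, a call at 1.5-fold, a filter at an RPKM of 5 and the absence of a filter. Named genes are the members, up to 4 members of a list past the call and up to 4 of its highest, the 5 genes nearest to Mpo and to Nkg7, neighbours of Elane and Mpo, Irf8 and Rn45s. Members and lists were chosen with earlier results of these data known. Cebpa, Gzmb, Prf1, genes overlapping a member and the ratios between members were named outside this rule, with values in view. Promoter windows are from RefSeq on GRCm38.p6, which is mm10, and 9 of 10 members matched. The steps were tested on simulated data. Scripts ran on matplotlib 3.10.9, pandas 2.3.3, scipy 1.17.1, numpy 2.4.6 and Python 3.11.15.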

Additional observations from a re-analysis of the deposited data

How the results depend on the processing

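All 10 members stayed lower in IRF8-deficient against NTB and against 4T1-TB under each of the 8 alternatives. Only the 3 scalings could have turned the sign, since pseudocounts, filters and the call threshold cannot. The number called lower against NTB, 1 as reported, was 5 with scaling by reads other than those of the 20 highest genes, 9 when scaled by summed reads and 9 at a call of 1.5-fold. Against 4T1-TB it was 6 as reported and 9 under both of the last alternatives. The members' median difference in IRF8-deficient against NTB was −1.01 with scaling by reads other than those of the 20 highest genes. It was −1.37 when scaled by summed reads, and the reported −0.83 passed a 1.5-fold call. In 4T1-TB against NTB the number called higher was 0 as reported and 2 at 1.5-fold. Small differences of Mpo, Elane and Nkg7 between 4T1-TB and NTB changed sign with the scaling. Counts over all genes also moved. In 4T1-TB against NTB, 178 genes were called higher and 144 lower as reported, 282 and 354 with a pseudocount of 0.1, 65 and 21 with a pseudocount of 5, 115 and 74 at an RPKM of at least 5, and 466 and 530 at 1.5-fold. In IRF8-deficient against NTB, 936 were higher and 611 lower as reported, 1071 lower with a pseudocount of 0.1, 526 and 149 with a pseudocount of 5, 465 and 1963 scaled by summed reads, and 1859 and 1778 at 1.5-fold. In IRF8-deficient against 4T1-TB, 941 were higher and 754 lower as reported, 475 and 311 with a pseudocount of 5, 505 and 1562 scaled by summed reads, and 1987 and 1927 at 1.5-fold. The share of reads taken by the members was 1.55%, 0.516% and 1.30% in 4T1-TB, IRF8-deficient and NTB without Mpo, 3.63%, 1.76% and 3.36% without the 20 highest other genes of any library in the denominator, and 3.40%, 1.46% and 3.19% without Rn45s. Leaving out a library was not possible with 1 per group. No paired analysis was possible because each group has 1 library. Variation between animals was not measured, and how the library sizes behind the RPKM were formed is not known.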
